A study of Mus musculus with 12 samples.

Results

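The data analysed here are the Bach1 silencing experiment at day 2 of differentiation in C2C12 cells, a mouse myoblast line of the C3H strain that leaves the cell cycle and fuses into myotubes when serum is withdrawn. Its 6 arrays were chosen from the 12 of the series by their labels: 3 arrays of cells that received an siRNA against Bach1 (siBach1) and 3 of cells that received a control siRNA (siControl). Both groups were transfected a day before confluent cultures were moved to medium with 2% horse serum, and RNA was taken at day 2 after that change. The other 6 arrays hold the same 2 siRNA groups at day 0 and were used for the shared estimate of spread and for a test of the difference between the days. The arrays rest on 1 cell line and 1 siRNA against Bach1, and the methods give experiments in triplicate without saying whether the 3 arrays of a group came from separate cultures, so that p-values measure only the spread between these samples, which may be technical.

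Bach1 is a transcription factor that pairs with small Maf proteins and represses genes through Maf recognition elements, which overlap the antioxidant response elements used by the activator Nrf2. Haem binds Bach1 and removes it from DNA, so its classical targets are genes for haem breakdown, iron storage, glutathione metabolism and, in other cells, globins. In skeletal muscle, differentiation is driven by the Myod1 family of factors, and sarcomere, calcium handling and metabolic genes follow as myotubes form.

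The arrays were 1-colour Agilent mouse arrays. Levels below are log2 signals relative to the 75th percentile of the same array, and differences are siBach1 minus siControl on the log2 scale, so that a difference of 1 is 2-fold. A probe entered the test if all 3 arrays of some condition, of the 4, had it well above background; 29664 of 56605 probes and 15642 named genes met this. "Rose" and "fell" refer to probes with a Benjamini-Hochberg adjusted p under 0.05 in the limma fit, and "called" to those that also changed at least 2-fold. The siControl arrays had between 51.3% and 57.9% of probes well above background and the siBach1 arrays between 52.6% and 58.9%, and no spot was saturated. On each slide every condition had a slide column of its own, so column and condition cannot be told apart. Replicates 1 and 2 of each group lay on one slide and replicate 3 on another.

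At day 2, 452 probes were called higher in siBach1 cells (1.52% of those tested) and 193 were called lower (0.651%), 645 in all (2.17%). With the call made on any probe of a gene, this was 369 genes higher (2.36% of genes) and 157 lower (1.0%). Calls higher made up 70.1% of all calls with the deposited processed signal and 56.6% after another background correction, which called 125 probes higher and 96 lower. Of the 98 called probes named below, 33 were no longer called after that correction, 29 of them because the change fell under 2-fold. Without the 2-fold limit the balance turned, since 1705 probes rose (5.75%) and 1858 fell (6.26%). The median difference over all genes was −0.03. Large changes were mostly increases: 71 called probes were at least 4-fold higher and 31 at least 4-fold lower. The siBach1 and siControl arrays did not overlap for 449 of the 452 probes called higher and for all 193 called lower, which the call rule itself favours (over all tested probes, 15.7% were separate above and 17.1% below). Of the called probes, 70 higher ones were well above background on no siControl array and 21 lower ones on no siBach1 array, so that only a bound of their change was measured.

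**Figure D1:**
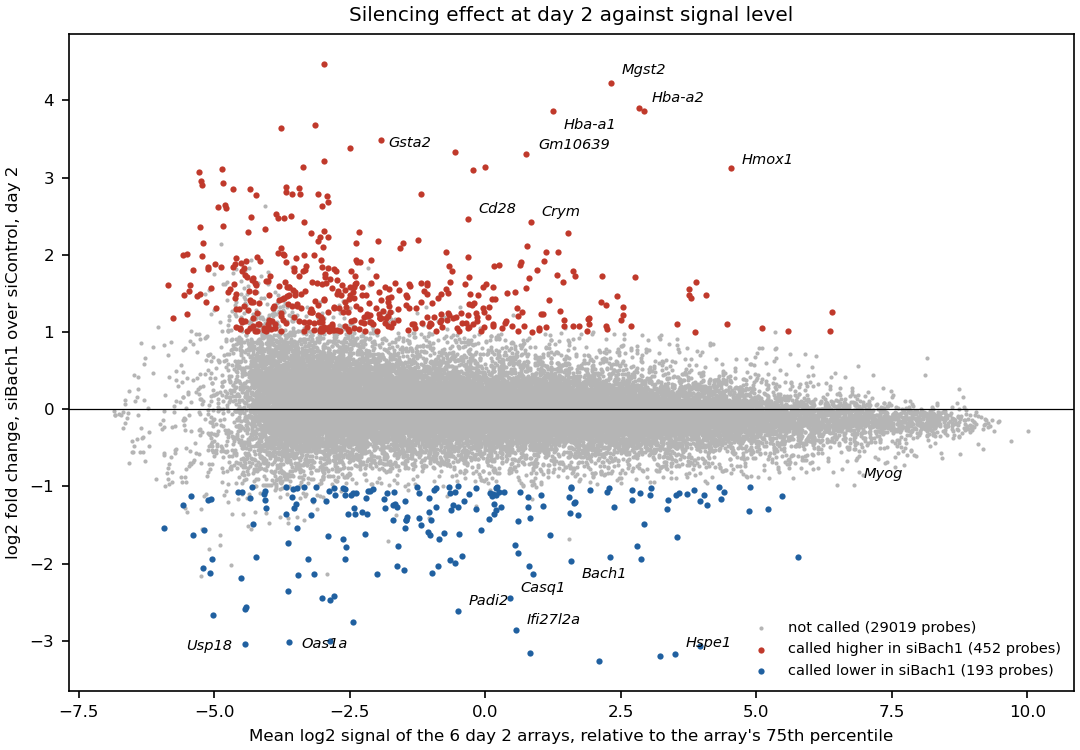
Each point is 1 tested probe, with its mean log2 signal over the 6 day 2 arrays (relative to the 75th percentile of the array) on the horizontal axis and the log2 difference, siBach1 minus siControl, on the vertical axis. Coloured points are the 452 probes called higher and the 193 called lower, and labelled genes are among those described in the text.

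Bach1 itself was lower on every siBach1 array. It read 2.56, 2.55 and 2.58 on the 3 siControl arrays and 0.57, 0.56 and 0.65 on the siBach1 arrays, a 3.91-fold fall (log2 difference −1.97, SE 0.11, limma adjusted p = 1.4e-05). The groups were separated by far more than the spread within either. At day 0 the difference was −1.77, and the change between the days did not pass the test (−0.19, adjusted p = 0.55). Among the 10 measured members of the list of Bach1, small Maf and Nrf factors, 4 fell and none rose on the probe that stands for each gene, with a list median of −0.23. The other members that fell were Maff, a small Maf partner (−0.58, adjusted p = 0.0032), Nfe2l1, a relative of Nrf2 (−0.44, adjusted p = 0.023), and Keap1, which holds Nrf2 for degradation (−0.37, adjusted p = 0.032). Over all genes, 7.4% fell by this measure and 6.38% rose, and the counts of the lists below are to be read beside these shares. For calls on any probe the shares are 2.36% higher and 1.0% lower. In fits that each left out 1 array, Keap1 lost the test in 5 and Nfe2l1 in 3 (adjusted p up to 0.115 and 0.067).

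Several genes that take haem apart or move iron rose. Of 16 measured members of this list, 4 rose (25%, against 6.38% of all genes) and none fell. On any probe 3 were called higher, against 2.36% of all genes. Hmox1, the haem oxygenase that opens the haem ring, read 2.93, 3.17 and 2.82 in siControl cells and 6.12, 6.0 and 6.18 in siBach1 cells, an 8.72-fold rise (log2 difference 3.12, SE 0.14, adjusted p = 2.8e-06). All siBach1 arrays lay well above all siControl arrays, and the rise at day 0 was of like size (3.30; difference between days −0.18, adjusted p = 0.69). Slc40a1, or ferroportin, which exports iron from the cell, read 0.28, 0.83 and 0.31 against 1.74, 1.66 and 2.26 (log2 difference 1.41, adjusted p = 0.0039). Slc48a1, which moves haem out of lysosomes, read 1.20, 1.31 and 1.06 against 2.25, 2.12 and 2.44 (log2 difference 1.08, adjusted p = 0.0015), and its other probe rose by 0.75. In both the groups did not overlap. Abcb6, a porphyrin transporter, rose by 0.79 (adjusted p = 0.012). The ferritin heavy chain Fth1 differed by 0.27 and the transferrin receptor Tfrc by 0.83, neither past the test (adjusted p = 0.075 and 0.084). None of the 8 measured enzymes of haem synthesis passed the test, with differences of 0.36 for Alas1 (adjusted p = 0.052), the first enzyme of the pathway, and −0.23 for Alad.

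The α-globin genes were among the strongest changes, while myoglobin went the other way. Hba-a1, an adult α-globin chain, read 0.95, 0.76 and 1.29 in siControl cells and 4.73, 5.04 and 4.81 in siBach1 cells, a 14.49-fold rise (log2 difference 3.86, SE 0.13, adjusted p = 4.2e-07). Its second probe rose by 3.87 and the probe named Hba-a2 by 3.90. Hba-a1 and Hba-a2 are near-identical copies, so these probes cannot be taken as separate genes. The groups were far apart on all 3 probes. Hbb-bh1, a β-type globin of the embryo, was much nearer background, at −4.12, −3.51 and −3.98 against −2.60, −3.03 and −2.08 (log2 difference 1.30, SE 0.27, adjusted p = 0.012). Mb, the oxygen-binding myoglobin of muscle, read 5.15, 4.68 and 4.98 against 4.09, 3.63 and 3.60 (log2 difference −1.16, SE 0.32, adjusted p = 0.041), and Cygb, or cytoglobin, fell by 1.17 (adjusted p = 0.014). Mb lost the call in 7 fits that each left out 1 array, with adjusted p up to 0.124, and Cygb in 2, with adjusted p up to 0.057. The median over the 6 measured globins and relatives was 1.09, but 0.32 with normexp and −0.07 with dim probes kept. Of 14 marker genes of red blood cell precursors, 5 were measured in any condition. On no array did 7 of them stand above background, among them Gata1, Tal1 and Alas2. The log2 of the summed signal of the list was 4.40 to 4.60 in siControl and 4.51 to 4.66 in siBach1 cells. Most of that sum came from probes of Ank1, the brightest with means of 3.71 and 3.72, so it says little of the other markers.

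Glutathione S-transferases, which attach glutathione to reactive compounds, mostly rose where they changed. Of 22 measured members, 9 rose (40.9%) and 4 fell (18.2%), against 6.38% and 7.4% of all genes. On any probe 4 were called higher and 1 lower, against 2.36% and 1.0% of all genes, and the median was 0.14. The microsomal enzyme Mgst2 read 0.30, 0.71 and −0.41 in siControl cells and 4.38, 4.65 and 4.25 in siBach1 cells, an 18.8-fold rise (log2 difference 4.23, SE 0.24, adjusted p = 1.4e-05). Gsta2, an α-class enzyme, read −2.28, −2.01 and −2.38 against 0.85, 1.42 and 1.08, a 10.1-fold rise (log2 difference 3.34, SE 0.21, adjusted p = 2.7e-05). Gm10639, a protein-coding gene that lies near Gsta2 in the reference annotation, read −0.87, −0.81 and −1.03 against 2.06, 2.67 and 2.48 (log2 difference 3.31, adjusted p = 5.6e-06). In all 3 the groups were separated by several times their spread, but the Gsta genes and Gm10639 are related in sequence, and their probes may share signal. Gsta4, which acts on products of lipid oxidation, read 1.37, 1.57 and 1.40 against 2.67, 2.80 and 3.03 (log2 difference 1.39, adjusted p = 0.00019), and Gstt1 read −0.14, 0.39 and −0.11 against 1.14, 1.44 and 1.33 (log2 difference 1.26, adjusted p = 0.0021). The μ-class members rose by less than 2-fold, with 0.78 for Gstm1 (adjusted p = 0.0024), 0.74 for Gstm3, 0.70 for Gstm4 and 0.51 for Gstm6. The call lower was Gstk1, the mitochondrial and peroxisomal member, which was measured in siControl cells and not well above background in siBach1 cells (at least 2.31-fold lower, adjusted p = 0.001). Gsto2, Gstt3 and Gstp1 fell by 0.69, 0.42 and 0.27.

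Enzymes that make and use glutathione changed less. Of 36 measured genes of the glutathione, thioredoxin and NADPH list, 6 rose, 2 fell and 28 did not pass, and the median was −0.01. Gclm, the modifier subunit of the enzyme that limits glutathione synthesis, was the call in this list and read 1.40, 1.34 and 1.21 against 2.43, 2.44 and 2.62 (log2 difference 1.18, SE 0.11, adjusted p = 0.00022). Its catalytic partner Gclc rose by 0.63 (adjusted p = 0.0028). The glutathione peroxidase Gpx3 rose by 0.87 (adjusted p = 0.0035), the peroxiredoxin Prdx6 by 0.44 and the glutaredoxin Glrx by 0.41. For both subunits of the synthesis enzyme all siBach1 arrays lay above all siControl arrays. The members that fell were Nqo1, a quinone reductase (−0.73), and Gsr, which recycles glutathione (−0.41), and the NADPH-forming enzyme Me1 rose by 0.43.

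**Figure D2:**
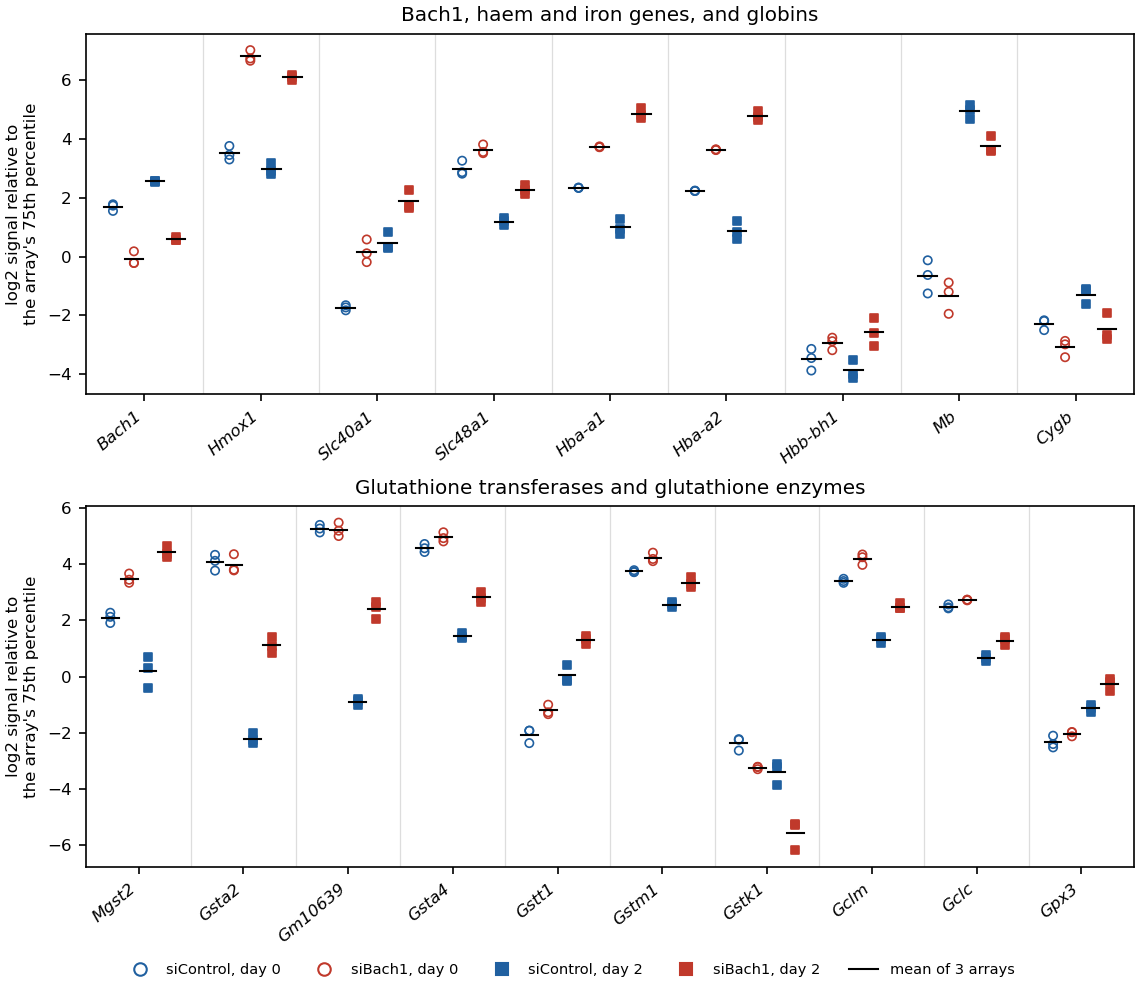
Points show the log2 signal on each array, relative to the 75th percentile of the array, for genes of haem breakdown, globins and glutathione metabolism, with siControl in blue and siBach1 in red, day 0 as open circles and day 2 as filled squares, and bars at the means of 3 arrays. Bach1 is low on all siBach1 arrays, Hmox1 is high in siBach1 cells on both days, and Gsta2 is separated at day 2 only, the difference between days being 3.43.

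Letters of the antioxidant response element were looked for in the 250 bases before the annotated gene start, in RefSeq promoters of the GRCm38.p6 build, as TGACNNNGC on either strand. They were found for 40 of 262 genes called higher that have an entry (15.3%), for 20 of 125 called lower (16%) and for 1593 of 11718 tested genes (13.6%). The narrower form TGACTCAGC, which is contained in the first, was held by 2 genes called higher, 1 called lower and 0.478% of tested genes. Among the 11 members of the haem, globin and glutathione lists that were called higher, 6 have an entry, and Gclm was the one whose window holds the letters. Its window is shown because it is the member with a match, at chr3:122245307-122245556 on the plus strand, with the match in capitals, 125 bases before the gene start and read as TGACGGTGC on the opposite strand.
Gclm: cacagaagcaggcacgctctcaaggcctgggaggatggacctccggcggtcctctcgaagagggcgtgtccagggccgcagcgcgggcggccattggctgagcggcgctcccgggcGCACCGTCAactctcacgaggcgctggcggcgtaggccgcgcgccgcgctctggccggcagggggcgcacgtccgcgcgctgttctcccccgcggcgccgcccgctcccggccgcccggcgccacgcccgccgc
The share among called genes was near that of all tested genes, and the match is a description of the letters alone.

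Several of the largest rises belonged to genes outside these pathways. 2310002L09Rik, a protein-coding gene of unnamed function, read −3.91, −3.55 and −3.55 in siControl cells and −0.46, −0.22 and 0.13 in siBach1 cells, an 11.2-fold rise (log2 difference 3.48, SE 0.26, adjusted p = 7.2e-05), and its other probe was at least 13.7-fold higher. Cd28, known as a co-stimulatory receptor of T cells, read −1.64, −1.62 and −1.39 against 0.82, 0.98 and 0.95 (log2 difference 2.47, SE 0.12, adjusted p = 5e-06). Crym, a cytosolic binding protein for thyroid hormone, read 0.07, −0.26 and −0.93 against 2.30, 1.94 and 1.91 (log2 difference 2.43, adjusted p = 0.0016). The siBach1 arrays were the higher ones in each of the 3, without overlap, but the rule that named these genes required this. The sarcoplasmic reticulum dehydrogenase Dhrs7c rose by 2.29 (another of its probes by 0.84), the axon-outgrowth protein Shtn1 by 2.18 and Prr32 by 2.79. The unnamed transcripts 1700024P16Rik and 4732465J04Rik rose by 2.30 and 2.16. Some genes were well above background on all siBach1 arrays and on no siControl array: Sema3d, a secreted guidance protein, was at least 6.66-fold higher, Hpgd, which breaks down prostaglandins, at least 5.94-fold, Gm36913 at least 5.09-fold and Mlip, a muscle protein that binds lamin, at least 4.87-fold. Probes disagreed for Mlip, whose other probe differed by 0.01.

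Among the largest falls outside the lists, Padi2, which converts protein arginine to citrulline, read 0.67, 0.66 and 1.07 in siControl cells and −1.83, −1.55 and −2.06 in siBach1 cells (log2 difference −2.61, adjusted p = 9.5e-05). Rasgrp2, an exchange factor for the small GTPase Rap1, fell by 2.13 on both its probes (adjusted p = 0.0012 and 0.0036). Syt8, a synaptotagmin, fell by 2.03 (adjusted p = 0.018), and lost the call in 4 fits that each left out 1 array (adjusted p up to 0.060). Parvb, an adhesion protein that binds actin, fell by 1.95 on one probe and 1.19 on another, while the last differed by −0.07. All siBach1 arrays lay below all siControl arrays for the probes that passed, which the rule required of the probe that named each gene. Cntfr, the receptor for ciliary neurotrophic factor, was at least 1.94-fold lower (adjusted p = 0.013).

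Differentiation genes of muscle stayed high in both groups, and those that changed mostly fell. In bulk RNA, fewer cells of a type and less RNA per cell cannot be told apart. Of 57 measured sarcomere genes, 11 fell and none rose on the probe that stands for the gene, the median was −0.34, and 32 (56.1%) had all siBach1 arrays below all siControl arrays, against 19.0% of all genes. The list median was −0.20 after quantile normalization and lay between −0.39 and −0.25 when single arrays were left out, when 3 to 6 members were called (3 without siControl replicate 1 of day 2). The log2 of the summed signal of 9 measured muscle identity markers was 10.86 to 10.98 in siControl and 10.42 to 10.62 in siBach1 cells. Its part in the result was not tested, and the brightest probes weigh most in such a sum.

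Of the sarcomere genes, the light chain Myl2 and the Z-disc gene Actn2 were lowered most on probes well above background in both groups. Myl2, the regulatory light chain of slow and cardiac myosin, read 2.29, 1.68 and 1.5 in siControl cells and 0.15, −0.28 and −0.49 in siBach1 cells (log2 difference −2.03, SE 0.38, adjusted p = 0.0084). Actn2, the α-actinin of the Z-disc, read 3.89, 4.05 and 3.60 against 2.07, 2.19 and 1.47 (log2 difference −1.93, SE 0.26, adjusted p = 0.0016), and its other probe fell by 1.86. The groups did not overlap in either gene. The fast myosin heavy chain Myh1 read 4.57, 4.42 and 4.66 against 3.57, 2.97 and 3.52 (log2 difference −1.19, adjusted p = 0.03). The perinatal Myh8 fell by 1.01 (adjusted p = 0.04; other probe −0.20, adjusted p = 0.79), and Myh4, another fast myosin, by 1.06 on 1 dim probe (adjusted p = 0.0083), while its other probes did not pass. Myh1 lost the call in 6 fits that each left out 1 array and Myh8 in 7, with adjusted p up to 0.096 and 0.120. Actc1, the cardiac actin that is also made in young muscle, fell by 0.75 (adjusted p = 0.0016), the fast troponin Tnni2 by 0.63, Myl6b by 0.56 and Pdlim3 by 0.52, whereas the skeletal actin Acta1 differed by −0.57 without passing (adjusted p = 0.061). Ttn, the giant spring protein titin, was called higher on 1 of its 6 probes (0.63, 0.44 and 0.73 against 2.08, 2.14 and 2.52; log2 difference 1.65, adjusted p = 7e-05), and none of the other 5 passed, with differences of −0.38 to 0.32.

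Of the transcription factors that direct differentiation, Myog, or myogenin, fell from a mean of 7.28 to 6.31 (log2 difference −0.98, adjusted p = 0.016) and Myod1 from 3.61 to 3.13 (−0.48, adjusted p = 0.036). These were 2 of 16 measured members of the list of Myod1, Mef2, Pax and related factors, in which none rose, none was called and the median was −0.05. Pax7, the satellite cell factor, differed by −1.06 and did not pass (adjusted p = 0.05). For fusion and adhesion, 3 of 20 members fell and 1 rose: Tmem8c, the fusion protein myomaker, fell by 0.59, Cd9 by 0.60 and the laminin receptor subunit Itga7 by 0.34, and Jam3 rose by 0.31. At the neuromuscular junction, 2 of 11 rose and 2 fell, among them Dok7, which activates the receptor kinase MuSK (−0.88, adjusted p = 0.0011), the acetylcholine receptor subunit Chrnd (−0.33), the clustering factor Agrn (0.34) and the collagen tail Colq (0.80). In the dystrophin complex, 2 of 16 rose and 1 fell, with Sntb1 at 0.82, Lama2 at 0.54 and Dag1 at −0.79. The medians of these 4 lists lay between −0.12 and 0.06. When single arrays were left out, Jam3 lost the test in all 12 fits (and with the authors' values), Myod1, Tmem8c and Itga7 in 6 each (adjusted p up to 0.114, 0.087 and 0.090), Myog in 2 (up to 0.055), Chrnd in 5, and Agrn and Colq in 3 each.

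Calcium handling genes changed in both directions. Of 26 members of the excitation-contraction coupling list, 7 rose and 3 fell, with a median of 0.19 that lay between 0.07 and 0.33 when single arrays were left out. Casq1, the calcium store protein of fast muscle, read 1.48, 1.95 and 1.61 in siControl cells and −0.84, −0.42 and −1.03 in siBach1 cells, a fall of 2.44 on the log2 scale (log2 difference −2.44, SE 0.27, adjusted p = 0.00063). Sln, or sarcolipin, which restrains the calcium pump, moved the other way, from −4.23, −4.27 and −4.38 to −1.77, −1.39 and −1.46 (log2 difference 2.75, SE 0.60, adjusted p = 0.016), with 1 of 3 siControl arrays well above background. The groups did not overlap in either gene. Sln just missed the threshold without siBach1 replicate 2 of day 2 (adjusted p = 0.050). The inward rectifier channel Kcnj2 rose by 1.05 (adjusted p = 0.042), a call lost in 7 fits that each left out 1 array, with adjusted p up to 0.121. Triadin (Trdn), a partner of calsequestrin, rose by 1.00 (adjusted p = 0.003) and junctophilin Jph1 by 0.59, whereas the calcium buffer parvalbumin (Pvalb) fell by 0.94 (adjusted p = 0.0028).

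**Figure D3:**
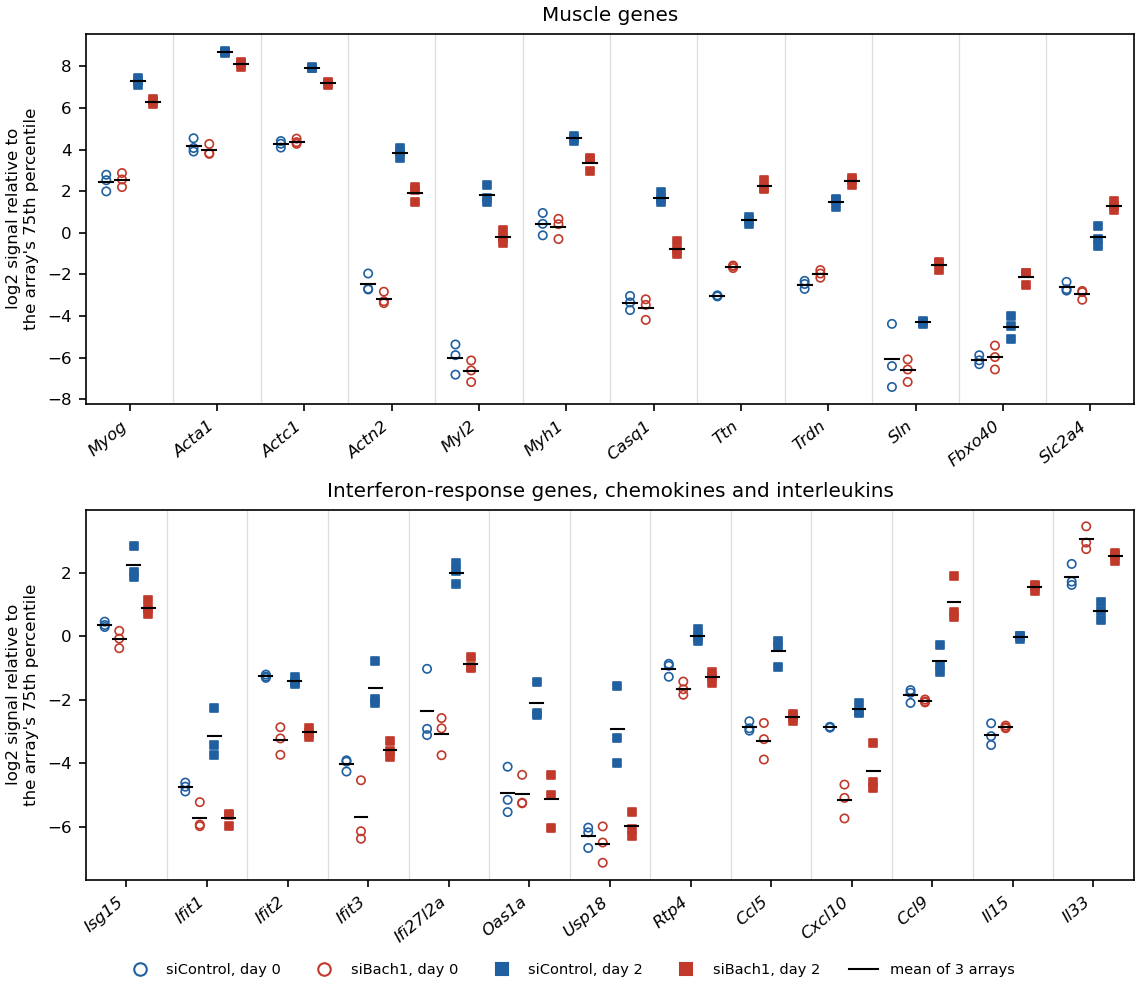
Points show the log2 signal on each array, relative to the 75th percentile of the array, for muscle genes in the upper panel and interferon-response genes, chemokines and interleukins in the lower panel, with siControl in blue and siBach1 in red, day 0 as open circles and day 2 as filled squares, and bars at the means of 3 arrays. At day 2 Casq1, Actn2, Isg15 and Ifit2 are lower on all siBach1 arrays than on all siControl arrays, whereas Slc2a4, Sln and Il15 are higher.

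Single genes for glucose and fatty acid uptake and use rose, while the median of the glycolysis list was negative. Slc2a4, the insulin-responsive glucose transporter GLUT4, read −0.30, 0.32 and −0.65 in siControl cells and 1.31, 1.52 and 1.08 in siBach1 cells (log2 difference 1.51, SE 0.23, adjusted p = 0.0033), with no overlap. It was the call among 29 measured genes of the glucose and glycolysis list, of which 4 rose and 4 fell (13.8% each). The list median was −0.23, or −0.11 after quantile normalization. Within glycolysis, Pgam2 rose by 0.80 and Ldhb by 0.77, and the muscle enolase Eno3 fell by 0.44. Of 23 fatty acid and energy genes, 6 rose (26.1%) and 1 fell (4.35%), against 6.38% and 7.4% of all genes. On any probe 3 were called higher, against 2.36% of all genes. Pdk4, a kinase that inhibits pyruvate dehydrogenase, read −0.21, −0.52 and −0.18 against 1.51, 1.51 and 1.79 (log2 difference 1.91, SE 0.22, adjusted p = 0.00074). Lpl, which frees fatty acids from lipoproteins, read 1.93, 1.96 and 1.88 against 2.90, 3.07 and 3.26 (log2 difference 1.15, SE 0.10, adjusted p = 0.0002). All siBach1 arrays were above all siControl arrays for both. Lpl was called on 4 of 6 probes, with differences of 1.15 to 2.00, and of the others one rose by 0.92 and one differed by 0.31 without passing. Ppargc1a, the co-activator of mitochondrial genes, rose by 1.13 and 1.23 on its probes (adjusted p = 0.0033 and 0.036), the second of which lost the call in 8 fits that each left out 1 array, with adjusted p up to 0.112. The uncoupling proteins Ucp2 and Ucp3 rose by 0.81 and 0.84, and the carnitine transferase Cpt2 fell by 0.37. Pgam2 lost the test in 2 fits without 1 array and Cpt2 in 4.

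The respiratory chain list did not follow these genes. Of 76 nuclear-encoded subunits, 1 rose and 6 fell (7.89%, near the 7.4% of all genes). The median was −0.14, or 0.01 after quantile normalization. All siBach1 arrays lay below all siControl arrays for 38 subunits (50%), against 19.0% of all genes. Cox8b, a muscle form of a cytochrome oxidase subunit, read 3.90, 4.28 and 3.52 in siControl cells and 4.93, 5.14 and 4.94 in siBach1 cells (log2 difference 1.10, adjusted p = 0.012), with no overlap, while the falls were small, such as 0.38 for Ndufs6, 0.37 for Atp5l and 0.32 for Ndufb2, which lost the test in 8, 2 and 2 fits without 1 array. Of 11 genes of the mitochondrial genome, 8 (72.7%) had all siBach1 arrays above all siControl arrays, against 15.6% of all genes. The median was 0.44, or 0.59 after quantile normalization, and lay between 0.39 and 0.50 when single arrays were left out. In this list 1 gene rose and 1 fell. These were the neighbours ND5 and ND6, which lie on opposite strands and went opposite ways. ND6 read 2.04, 1.71 and 2.08 against −0.22, 0.11 and −0.47 (log2 difference −2.13, SE 0.25, adjusted p = 0.00081). ND5 read 5.00, 5.05 and 5.18 against 6.17, 6.09 and 6.03 (log2 difference 1.02, adjusted p = 0.029), and lost the call in 6 fits that each left out 1 array, with adjusted p up to 0.092.

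Among growth signals, the Igf2 locus and a cell cycle inhibitor fell. Igf2, the growth factor made by differentiating myoblasts, read 0.44, 0.22 and −0.25 in siControl cells and −1.77, −1.54 and −2.38 in siBach1 cells (log2 difference −2.03, SE 0.42, adjusted p = 0.013), and its other probe differed by −1.68 without passing (adjusted p = 0.071). Igf2os, an antisense transcript that overlaps Igf2, read 0.19, 0.54 and 0.55 against −1.81, −1.31 and −1.56 (log2 difference −1.99, adjusted p = 0.0019). Both sets of arrays were separate, which the naming rule required of Igf2os. Whether the overlapping transcripts were told apart by these probes was not tested. In the insulin-like growth factor and Akt list, 2 of 24 members rose and 4 fell, with Igfbp5 at −0.71, Eif4ebp1, a brake on translation, at −0.69, Igfbp2 at −0.60, Irs1 at 0.39 and Mtor at 0.34. The kinases Akt1 and Akt2 passed on none of their 3 probes each, with differences of −0.15 to 0.53 and −0.19 to 0.09. Without single arrays, Mtor lost the test in 8 fits, Igfbp5 in 5 and Eif4ebp1 in 2. Cdkn1c, the inhibitor p57, read 0.06, −0.11 and 0.27 against −2.04, −2.22 and −1.88 (log2 difference −2.12, SE 0.25, adjusted p = 0.00078), with no overlap. In its list of D cyclins, CDK inhibitors and Rb family genes, 7 of 13 fell and 1 rose, with a median of −0.44. Cyclin Ccnd2 fell by 1.07 and 1.02 on the called probes, Ccnd3 by 0.65, the inhibitor Cdkn2c by 0.87 and Rb1 by 0.61, and the inhibitor p27, Cdkn1b, rose by 0.49. For Cdkn1a, or p21, one probe fell by 0.43 (adjusted p = 0.01) and others differed by −0.05 and 0.10.

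Few genes of the cell cycle list passed the test. Of 54 members, 5 fell (9.26%, near the 7.4% of all genes). Among them were the factor E2f2 by 0.85, the centromere genes Cenpa and Ndc80 by 0.78 and 0.64 and the cyclin Ccnb2 by 0.55. The replication gene Cdc45 rose by 0.61. All siBach1 arrays lay below all siControl arrays for 11.1% of the list, against 19.0% of all genes. The median was −0.31, and it ran from −0.57 without siControl replicate 2 of day 2 to −0.19 without siControl replicate 3. In the Foxo and atrophy list of 15, 3 rose and 2 fell. Fbxo40, a muscle ubiquitin ligase that acts on the insulin receptor substrate, read −4.02, −5.13 and −4.49 against −1.95, −2.49 and −1.94 (log2 difference 2.42, SE 0.33, adjusted p = 0.0017), with no overlap and with 1 siControl array well above background. Fbxo32, or atrogin-1, rose by 0.76 (adjusted p = 0.0035) and Fbxo30 by 0.62, while the stress gene Ddit4 and the autophagy gene Gabarapl1 fell by 0.41 and 0.37. Trim63, or MuRF1, differed by 0.41, 0.44 and 0.57 on its probes and Foxo1 by 0.11 and 0.0043, none past the test. In the p53 list of 21, Sesn1 rose by 0.47 and Ei24 fell by 0.72 on the probes that stand for the genes. The death receptor Fas was called higher on a further dim probe (1.63, adjusted p = 0.013), and its other probes did not pass. Ccnb2, Fbxo30 and Ddit4 lost the test in 4 fits each that left out 1 array, and Ndc80 in 3.

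Genes of the TGF-β, Notch and Wnt pathways changed in single members. Of 34 TGF-β members, 4 rose (11.8%) and 2 fell (5.88%) with none called, against 6.38% and 7.4% of all genes that rose and fell. Among them, the co-receptor Tgfbr3 rose by 0.84, the activin subunit Inhbb by 0.61, the ligand Gdf11 by 0.55 and the transducer Smad3 by 0.35 (adjusted p = 0.045), and the receptor Tgfbr1 and the co-repressor Tgif1 fell by 0.40 and 0.37, while Smad2 differed by 0.19 and −0.32 on its probes without passing. In the Notch list of 17, the ligand Jag1 rose by 0.76, and the target Heyl differed by −1.0 without passing (adjusted p = 0.098). In the Wnt list of 30, 4 rose and 1 fell. The receptor Fzd4 read −1.14, −0.84 and −1.24 in siControl cells and 0.06, −0.16 and 0.60 in siBach1 cells (log2 difference 1.24, adjusted p = 0.0032), with no overlap. The receptors Fzd5, Fzd1 and Fzd8 rose by 1.00, 0.91 and 0.81 and the ligand Wnt9a fell by 0.85. Of 20 immediate early genes, the orphan receptor Nr4a1 rose by 0.78, and Ier2, Klf4 and Jund fell by 0.69, 0.43 and 0.31. Many of these small changes depended on single arrays: leaving 1 out took the test from Smad3 in 8 of 12 fits (adjusted p up to 0.146), Wnt9a in 10, Jund in 9, Fzd8 in 8, Tgfbr1 and Jag1 in 4 each, and Gdf11 and Inhbb in 1 each.

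A group of interferon-stimulated genes fell. Of 35 measured members, 11 fell and none rose, and 9 were called lower on any probe, 25.7% of the list against 1.0% of all genes. The list median was −0.08, since 24 members did not pass the test. Isg15, the ubiquitin-like protein of the response, read 2.01, 2.83 and 1.88 in siControl cells and 0.69, 0.87 and 1.14 in siBach1 cells (log2 difference −1.34, SE 0.24, adjusted p = 0.0062). Ifit2, an RNA-binding member, read −1.5, −1.28 and −1.43 against −3.16, −2.89 and −3.03 (log2 difference −1.62, SE 0.18, adjusted p = 0.00066). Ifi27l2a read 2.04, 1.64 and 2.30 against −0.96, −1.0 and −0.64 (log2 difference −2.86, SE 0.49, adjusted p = 0.0056). The groups did not overlap for these 3 genes, siBach1 arrays being the lower ones, and siControl replicate 2 was the highest siControl array for Isg15 and Ifit2.

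The dimmer interferon genes went the same way. Oas1a, a sensor of double-stranded RNA, fell from −2.41, −1.44 and −2.49 to −6.02, −5.00 and −4.37 (log2 difference −3.02, adjusted p = 0.0044), with 1 siBach1 array well above background. Usp18, which removes Isg15 from proteins, was at least 3.24-fold lower (adjusted p = 0.0061), Ifit1 at least 2.77-fold lower (adjusted p = 0.0015), and both were measured on no siBach1 array, as was Oas1f, which is outside the list (adjusted p = 0.0097). Ifit3 read −2.10, −0.77 and −1.98 against −3.61, −3.79 and −3.28 (log2 difference −1.94, adjusted p = 0.025), and lost the call in 3 fits that each left out 1 array, with adjusted p up to 0.076. Rtp4 fell by 1.31 (adjusted p = 0.00091), Oasl1 by 1.28 on 1 of its probes, the factor Irf7 by 0.95 (adjusted p = 0.028) and Gbp3 by 0.97 (adjusted p = 0.044). Gbp3 lost the test in 9 fits without 1 array and Irf7 in 3 (adjusted p up to 0.134 and 0.091). The number of called members lay between 8 and 11 when single arrays were left out, and was 6 with normexp.

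Chemokine and cytokine genes split, with 6 of 27 higher and 4 lower. Ccl5, which attracts T cells, read −0.96, −0.29 and −0.13 in siControl cells and −2.67, −2.54 and −2.44 in siBach1 cells (log2 difference −2.09, adjusted p = 0.0016). Cxcl10, which interferon induces, read −2.11, −2.38 and −2.40 against −4.78, −3.35 and −4.58 (log2 difference −1.94, adjusted p = 0.007). The alarmin Il33 read 0.79, 1.09 and 0.52 against 2.57, 2.36 and 2.63 (log2 difference 1.72, adjusted p = 0.0015). In these 3 genes the groups did not overlap, the chemokines being low and Il33 high in siBach1 cells. Il15, a cytokine made by muscle, read −0.90, −0.93 and −0.82 against 0.56, 0.51 and 0.73 (log2 difference 1.48, adjusted p = 0.00013), and rose by 1.57 and 1.6 on its other probes. Ccl9 rose by 1.86 (adjusted p = 0.0055) and Cxcl5, which attracts neutrophils, by 1.35 (adjusted p = 0.0074). Smaller changes were a rise of 0.92 for Cxcl1 and 0.66 for Tslp and a fall of 0.80 for Ccl25 and 0.36 for Spp1, of which Tslp and Spp1 lost the test in 4 fits each without 1 array. Of 7 macrophage markers, 4 were measured, none was called, and Adgre1, Aif1 and Tyrobp stood above background on no array. The log2 of the summed signal of this list was 2.92 to 3.37 in siControl and 2.82 to 3.32 in siBach1 cells.

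One mitochondrial chaperone gene fell strongly. Hspe1, the co-chaperonin HSP10 that works with Hspd1 in mitochondria, read 5.03, 5.05 and 5.16 in siControl cells and 1.87, 1.84 and 2.03 in siBach1 cells, an 8.97-fold fall (log2 difference −3.17, SE 0.10, adjusted p = 3.7e-07). Its other probes fell by 3.15 and 3.07, the 3 siBach1 arrays were far below the siControl arrays, and the day 0 differences were −3.26 to −3.48. Of 16 mitochondrial chaperones and proteases, 2 fell and none rose, the other being the protease Clpp (−0.54). Among 23 cytosolic heat shock genes, 3 fell and 1 rose. The small heat shock protein of muscle Hspb7 read 3.45, 3.21 and 3.15 against 1.59, 1.42 and 1.04 (log2 difference −1.92, adjusted p = 0.0026), with no overlap, and its other probe fell by 1.77. Hspb3 and Hsp90aa1 fell by 0.93 and 0.36, and Dnajb4 rose by 0.37, but these 3 lost the test in 5, 10 and 4 fits without 1 array.

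In the lists for protein quality control, the changes that passed were mostly under 2-fold. Of 35 proteasome subunits, 9 fell and none rose, none by 2-fold, with falls such as 0.44 for Psmd14, 0.43 for Psmc5 and 0.41 for Psma2. The median was −0.27 (−0.15 after quantile normalization), and 28 subunits (80%) had all siBach1 arrays below all siControl arrays, against 19.0% of all genes. Of 29 genes of the endoplasmic reticulum stress list, 5 fell and 1 rose, with the factors Atf4 and Atf6 at −0.57 and −0.56, the serine and glycine enzymes Psat1 and Shmt2 at −0.66 and −0.77, Edem1 at −0.50 and Sdf2l1 at 0.60. The median of this list ran from −0.58 to −0.08 when siControl replicate 3 or replicate 2 of day 2 was left out. Of 31 autophagy and lysosome genes, 4 rose and none fell, led by Gpnmb, a membrane glycoprotein (1.76, adjusted p = 0.014), with Npc1, which exports lysosomal cholesterol, at 0.66, the factor Mitf at 0.62 and Atg12 at 0.27. Npc1 and Atg12 lost the test in 9 fits each that left out 1 array, Atf4 and Sdf2l1 in 4 and Psat1 in 2. None of 26 cholesterol genes passed.

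A few genes of the extracellular matrix changed. Of 33 collagen and matrix genes, 4 rose and 1 fell: Col12a1 rose by 1.08 (adjusted p = 0.028; other probe 0.88, adjusted p = 0.084), a call lost in 4 fits that each left out 1 array (adjusted p up to 0.103), Col4a2 by 0.64, Col4a5 by 0.59 and Col5a3 by 0.50, and Loxl2, which crosslinks collagen, fell by 0.69. In the list of 28 matrix proteases, 4 rose and 4 fell (14.3% each, against 6.38% and 7.4% of all genes). Adam8, a membrane protease, read 1.33, 1.58 and 1.72 in siControl cells and 2.82, 2.97 and 2.92 in siBach1 cells (log2 difference 1.36, adjusted p = 0.00017), with no overlap. Adamts2, which trims procollagen, rose by 1.34 (adjusted p = 0.0022; other probes 0.75 and 0.41). Mmp3 rose by 1.96 (adjusted p = 0.04) and Adamtsl2 fell by 1.68 (adjusted p = 0.042), calls lost in 6 and 9 fits that each left out 1 array, with adjusted p up to 0.138 and 0.133. The gelatinase Mmp2 rose by 0.74, and Adam10, Adam19 and Adam15 fell by 0.59, 0.52 and 0.43. Adam15 lost the test in 8 fits without 1 array, Mmp2 and Col5a3 in 5 each and Col4a2 in 4, and with normexp 1 protease was called.

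A marker of bone cells was also higher. Bglap2, or osteocalcin, read 0.65, 0.84 and −0.54 in siControl cells and 2.48, 2.36 and 2.22 in siBach1 cells (log2 difference 2.03, adjusted p = 0.0035), and the probe named Bglap rose by 1.90 (adjusted p = 0.0057). The groups did not overlap in either, and Bglap and Bglap2 are near-identical copies whose probes may share signal. The other measured bone markers did not pass the test, with differences of 0.05 for Sp7, −0.07 and 0.62 for 2 probes of Runx2, 0.07 for Alpl and −1.40 for Dmp1 (adjusted p = 0.28, on 1 siBach1 array well above background), and Ibsp stood above background on no array. The log2 of the summed signal of the 6 measured bone markers was 1.26 to 1.96 in siControl and 2.68 to 3.1 in siBach1 cells. Bglap2, the brightest of them (means 0.32 and 2.35), makes up most of the rise of this sum. It is therefore no measure of the other bone markers. Of the adipocyte markers, 2 of 7 were measured, and of the endothelial markers 2 of 7, with none called.

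**Figure D4:**
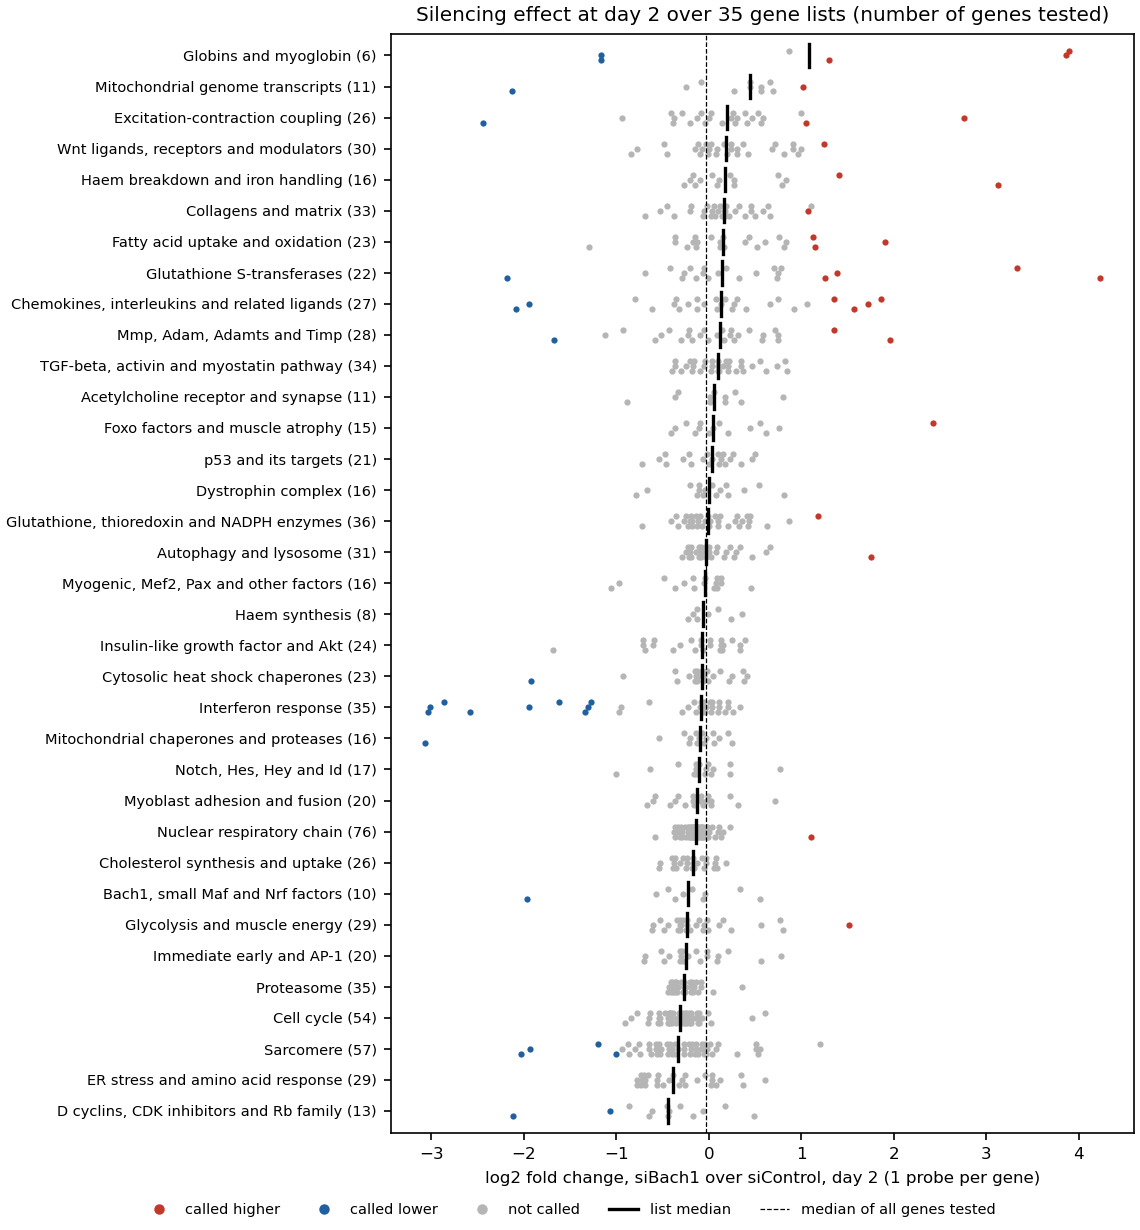
Each line is 1 list of genes, with the log2 difference at day 2 (siBach1 minus siControl) of every tested member on 1 probe per gene as a point, called members in colour, the list median as a bar and the median of all genes as a dashed line. The globin median is 1.09 (−0.07 with dim probes kept), while the medians of the sarcomere, D cyclin and endoplasmic reticulum stress lists are −0.34, −0.44 and −0.39, against −0.03 for all genes tested.

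Some of these effects differed between the 2 days and others did not. The effect at day 2 minus that at day 0 passed the test for 1361 probes (4.59%; 5.81% of genes with 1 probe each), and for 427 of them it was at least 2-fold (1.44%). Of the probes called at day 2, 139 of 452 higher and 52 of 193 lower passed it, a description only, since the same day 2 arrays chose these probes. For Gsta2, at day 0 siBach1 and siControl cells differed by −0.09, siControl cells lost 6.31 on the log2 scale between day 0 and day 2, and the effects of the 2 days differed by 3.43. Hba-a1, Mgst2, Slc2a4 and Fbxo40 also had a more positive effect at day 2, by 2.61, 2.84, 1.85 and 2.30. For Il15 1 of 3 probes passed (1.33), and the others gave 0.67 and 1.33 (adjusted p = 0.057 and 0.10). Casq1, Cdkn1c, Padi2 and Ccl5 had a more negative one, by −2.19, −1.96, −1.61 and −1.65. When 1 array was left out, Ccl5 lost this test in 10 of 12 fits and Fbxo40 in 4, while Casq1, Cdkn1c and Padi2 kept it in each. With dim probes kept, Casq1, Cdkn1c, Padi2, Ccl5, Fbxo40, Slc2a4 and the Il15 probe lost it, while Gsta2, Hba-a1 and Mgst2 did not. The difference for Fbxo40 fell to 0.51 in other processing. For Bach1 and Hmox1 the difference between the days did not pass.

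**Figure D5:**
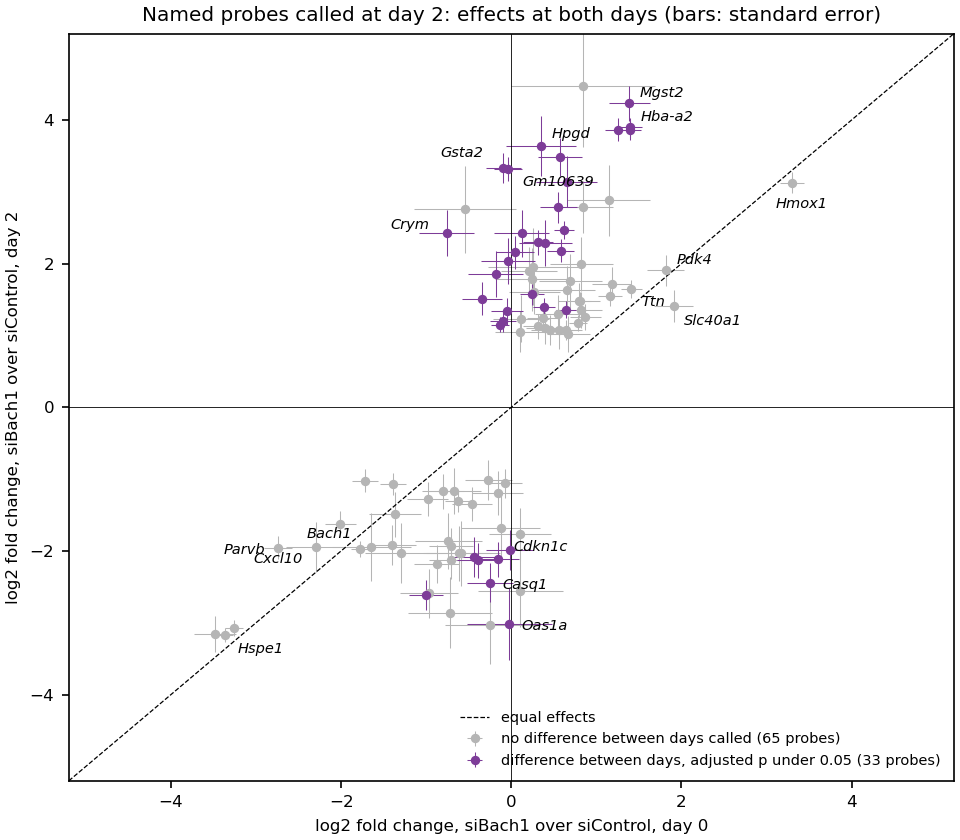
Each point is 1 probe called at day 2 of a gene described here, with the log2 difference between siBach1 and siControl at day 0 on the horizontal axis and at day 2 on the vertical axis, bars of 1 standard error, and a dashed line where both are equal. Hmox1, Hspe1 and Bach1 lie near the diagonal, and Gsta2, Mgst2 and Crym lie above it, with differences between days of 3.43, 2.84 and 3.18.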

How the data were processed

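Each of the 12 samples, 3 in each of 4 conditions as GEO's labels group them, was hybridised to a 1-colour Agilent mouse array. The authors scanned the arrays and extracted spots with Agilent Feature Extraction (version 9.1 per the submitters' notes, another version in the file headers). The deposited scanner files hold the processed signal as an intensity, background-subtracted by that software, and the authors' table of the series holds log2 values. That table was compared with log2 signal minus the array's 75th percentile and each probe's median (median absolute difference 0.00096, largest 0.25). The genome build in the array headers is mm9, so no probe coordinates are given. Names are those of the array design; 31840 of the 33465 RefSeq accessions found in the reference table had the same symbol there.

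Control spots and outlier spots (76 to 110 an array) were left out, spots of a probe were averaged, and log2 processed signal minus the array's 75th percentile was fitted with limma 3.58.1 in R 4.3.3 (lmFit and eBayes, 1 fit of the 4 conditions, no block, Benjamini-Hochberg adjustment over 29664 probes). Tables and figures were made with Python 3.11, pandas 2.3.3, numpy 2.4.6 and matplotlib 3.10.9. The fit was tested on simulated data. A probe that no array of a group measured has a bound in place of a fold: the mean of the brighter group against the higher, array by array, of the dim probe's own value and the lowest signal of any probe well above background. The number of arrays limits the precision.

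Genes named in the text are Bach1, Mgst2, Gsta2 and Hba-a1; the 15 called probes that rose most and the 15 that fell most, if measured on all 6 day 2 arrays without overlap; the 5 largest bounds in each direction; list members called on any probe; up to 4 further members of each list with the lowest p; and genes the study names for its arrays. Me1, Gsr, Nqo1, Cdc45, Igfbp2, Irs1, Tgif1 and Edem1 were named after their values were seen, to complete short counts, and a few genes that the rule names are not reported here. The members and the 35 lists of functions and 6 of markers were chosen with earlier results of these data known. A list is given by the probe with the highest mean signal of each gene, without a set test, and a call on any probe.

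The replicate numbers in the labels were checked for pairing. Over the 18 pairs of arrays with the same number in different conditions, deviations from the group means correlated at 0.142 to 0.595. Such arrays lie on the same slide and row. Alternatives were quantile normalization, normexp with an offset of 50, the authors' log2 table, other filters on dim probes, the replicate number or the slide as a block, the 6 day 2 arrays alone, other call rules, the methods' t-test, limma-trend with a robust prior, 1 probe for each gene, and fits that each omitted 1 array.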

Additional observations from a re-analysis of the deposited data

Results flagged for a closer look

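For 63 of 271 probes fitted for the genes of the report, the effect of silencing at day 2 differed from that at day 0 (limma test of the difference, adjusted p under 0.05). Most were named for their change at day 2, and the same arrays enter the difference, so this share is not comparable with that of all probes. Values below are that difference, day 2 minus day 0, on the log2 scale.

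Of the probes called at day 2, 26 had a more positive effect at day 2. Among glutathione enzymes and globins the differences were 1.00 for Gsta4, 2.84 for Mgst2, 3.43 for Gsta2, 3.35 for Gm10639, 2.47 and 2.61 for the Hba-a1 probes and 2.5 for Hba-a2. Among genes of metabolism and muscle they were 1.28 and 1.30 for 2 of 4 probes of Lpl, 1.85 for Slc2a4, 1.88 for Dhrs7c and 2.30 for Fbxo40. Among secreted, matrix and surface proteins they were 0.72 for Adam8, 1.33 for 1 of 3 probes of Il15, 1.39 for Adamts2, 2.04 for Ccl9, 2.07 for Bglap2, 1.85 for Cd28 and 2.49 for Sema3d. The remaining ones were 1.6 for Shtn1, 1.98 for 1700024P16Rik, 2.11 for 4732465J04Rik, 2.23 for Gm36913, 2.91 for 2310002L09Rik, 3.18 for Crym and 3.29 for Hpgd.

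A more negative effect at day 2 was found for 7 called probes, at −2.99 for Oas1a, −2.19 for Casq1, −1.97 for Igf2os, −1.96 for Cdkn1c, −1.74 for ND6, −1.65 for Ccl5 and −1.61 for Padi2. Of these 33 called probes, 19 were well above background on all 12 arrays. The probes of 2310002L09Rik, 4732465J04Rik, Dhrs7c, Fbxo40 and Sema3d were so on no day 0 array, and their day 0 effect compares background signals. Sema3d, Hpgd and Gm36913 were on no siControl array of day 2, so their values rest on background signal too and fell to 0.82, 0.85 and 0.47 in other processing. In 9 of the 33 the effects at the 2 days had opposite signs. The day 0 effects of these 9 were mostly small, from −0.04 for Bglap2 to −0.34 for Slc2a4 and −0.76 for Crym, so the sign alone says little.

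Of named probes not called at day 2, 18 had a more negative effect there. For muscle and adhesion genes the differences were −1.48 for Pdlim3, −1.38 for Dok7, −1.14 for Pvalb, −0.97 for Myl6b, −0.88 for Actc1, −0.75 for Chrnd, −0.71 for Cdh15, −0.66 for Itga7 and −0.57 for Cd9. For the others they were −0.93 for Psat1, −0.72 for E2f2, −0.67 for Cdkn1a, −0.64 for Urod, −0.64 for Ndufs6, −0.63 for Ddit4, −0.60 for Ccl25, −0.48 for Atp5l and −0.47 for Ndufb2. A more positive effect was found for 12, at 0.50 for Hspb8, 0.54 for Phka1, 0.54 for Dag1, 0.67 for Jph1, 0.67 for Glrx, 0.72 for Sesn1, 0.77 for Tgfbr1, 0.78 for Nr4a1, 0.79 for Ucp3, 0.88 for Ucp2, 0.98 for Loxl2 and 0.99 for Ei24. Dag1, Tgfbr1, Loxl2 and Ei24 were lower in siBach1 cells at both days, and less so at day 2. Their day 0 effects were −1.33, −1.16, −1.66 and −1.71, and those of day 2 were −0.79, −0.40, −0.69 and −0.72.

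None of the 63 differences changed direction in any alternative that gave a value. Of the 33 called at day 2, 10 passed the test in every alternative and 22 passed with every array left out in turn, while testing all probes without the filter on dim ones lost 23. That lost 51 of the 63. Of those called, Dhrs7c lost the test in 11 of 12 fits that each left out 1 array, and Adam8, Oas1a and Ccl5 in 10. Among those not called, Atp5l lost it in all 12, Ddit4 and Dag1 in 11, and Psat1, Ndufs6, Cd9, Ccl25, Ndufb2, Hspb8 and Ucp3 in 10. Pdlim3 and Dok7 passed in every alternative.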

How the results depend on the processing

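The 452 probes called higher and 193 called lower became 125 and 96 with normexp, 210 and 111 where a probe had to be well above background on all 12 arrays, 179 and 95 with the methods' t-test after Benjamini-Hochberg adjustment, 289 and 127 with 1 probe per gene, 1705 and 1858 with the adjusted p alone, and 1043 and 755 with a fold change of at least 1.5. They ranged from 349 to 476 and from 161 to 212 when each array was left out. With the replicate block they were 525 and 207, which held 449 and 191 of those called without it, and no called gene named here lost its call. The 427 probes that differed between days became 205 with normexp, 49 when dim probes were kept, 776 with the unadjusted t-test, 1361 with the adjusted p alone and 1090 with a fold change of at least 1.5, and ranged from 246 (without siBach1 day 2 replicate 1) to 465 when each array was left out. The Bach1 difference stayed between −2.0 and −1.84, past the test each time. Of 97 other called probes named in the report none was reversed in any alternative, 82 stayed past the test with every array left out and 51 in all other alternatives, with 41 lost under the adjusted t-test and 14 with no filter. Counting the 2-fold limit too, normexp lost 33 of 98 calls: Gpnmb, Hbb-bh1 and 1 probe each of Il15 and Lpl by p, and 29 by size, such as Fbxo40 (0.73), Gm36913 (0.74) and Adamts2 (0.65). Quantile normalization lost Myh8 by p and both Ccnd2 probes by size. With an array left out, Ccnd2, Fzd4, Myh4, Ppargc1a, Cygb, Cox8b and Slc48a1 each kept the test in 1 to 3 fits with a change under 2-fold. Of 106 named probes that passed under 2-fold, 87 lost the test in at least 1 other alternative and 49 with an array left out. Of 53 that did not pass, 34 passed in some other alternative. These alternatives include the methods' t-test without adjustment, where an unadjusted p under 0.05 counts as passing, so the 34 are not all at a like threshold. Signs turned, always for probes that did not pass, at Akt1 (0.0166 with quantile normalization) and Trim63 (−0.037 with normexp); when each array was left out the range was −0.0456 to 0.0678 for Akt2, −0.11 to 0.0055 and −0.0090 to 0.31 for 2 probes of Cdkn1a, −0.15 to 0.13 for Foxo1 and −0.059 to 0.76 for Trim63. The medians of 10 of 35 lists took the other sign in some alternative, 8 of them under quantile normalization, and the cause was not tested. Dim probes limit what can be said, since 70 higher and 21 lower calls rest on a bound.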
